A study of Mus musculus with 6 samples.

Results

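The 45 DNA replication genes described here code for the machinery that licenses origins, unwinds DNA, copies it and supplies its nucleotides. They were taken by name from a list, and each was given the H3K27ac peaks that overlapped the 3 kb on either side of any of its transcription start sites (TSSs). Of the 45 genes, 43 had such a promoter peak in all 4 libraries, against 10391 (47.2%) of the 22028 protein-coding genes of the GENCODE M21 annotation. These 43 are compared below with the 10391 promoters, and Pola2 and Prim1, which lacked a peak in 1 library, are given by their values alone.

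H3K27ac, an acetylation of histone H3 found at active promoters and enhancers, was profiled by ChIP-seq in B16 F10 cells, a mouse melanoma line. Seeding was sparse, at 100 cells per cm2, a density at which the cells gain pigment over days, and collection was on day 5. Low pigment (LP) and high pigment (HP) cells of 1 culture were then sorted by side scatter, with 2 replicates of each population and no treatment or genetic change in either. An IgG library of unsorted cells was the peak calling control of each replicate number. All libraries came from 1 line and the labels do not say that the replicates were separate cultures, so p-values measure only the spread between these libraries.

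The LP libraries held 11467942 and 15353176 fragments and the HP libraries 11483830 and 14254904, with 57942 to 71529 peaks each. A value below is a scaled pileup, the count of fragments over the summit of the highest promoter peak per 1000000 fragments of the library, and values are given for replicate 1 and then replicate 2. A peak missing from a list means that the threshold of the peak caller was not reached, not that the mark was absent. All 7 pigment cell markers (Mitf, Sox10, Tyr, Tyrp1, Dct, Pmel and Mlana) had a promoter peak in all 4 libraries. Of 13 markers of immune cells, keratinocytes, fibroblasts and endothelial cells, Pecam1 had a peak in all 4 libraries, Ptprc, Cd3e, Itgam, Krt5 and Cdh5 had none in any, and the other 7 had one in 1 to 3 libraries.

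Before S phase, the origin recognition complex with Cdc6 and Cdt1 loads the MCM helicase onto origins, and geminin blocks Cdt1 once S phase has begun. Cdc45 and GINS then turn MCM into the active helicase, primase and the polymerases copy DNA with the PCNA clamp and its RFC loader, RPA covers single strands, and Fen1 and Lig1 join the lagging strand. Many of these genes are known to be transcribed in a wave before S phase through E2F binding sites close to their TSS, and in pigment cells dividing progenitors and pigmented cells are regarded as separate states.

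The promoter windows of 6 of the genes are shown as examples that hold E2F-type letters. Each runs from 250 bases before to 50 bases after a RefSeq TSS on GRCm38.p6, written in the direction of the gene. Capitals mark matches to TTNNCGC, with C or G at each N, on either strand, and overlapping matches form 1 stretch. The windows are those of Pola1 (chrX:93632106-93632405, minus strand, 4 stretches), Cdt1 (chr8:122567765-122568064, plus strand, 2 stretches), Lig1 (chr7:13278576-13278875, plus strand, 2 stretches), Mcm3 (chr1:20820263-20820562, minus strand, 2 stretches), Rfc3 (chr5:151651159-151651458, minus strand, 2 stretches) and Cdc6 (chr11:98907901-98908200, plus strand, 1 stretch).
Pola1: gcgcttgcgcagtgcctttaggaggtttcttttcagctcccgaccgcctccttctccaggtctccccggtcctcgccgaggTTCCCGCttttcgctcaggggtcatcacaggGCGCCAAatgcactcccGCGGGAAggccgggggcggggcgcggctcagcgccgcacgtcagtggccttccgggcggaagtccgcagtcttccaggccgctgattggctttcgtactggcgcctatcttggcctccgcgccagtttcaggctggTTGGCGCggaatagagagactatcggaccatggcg
Cdt1: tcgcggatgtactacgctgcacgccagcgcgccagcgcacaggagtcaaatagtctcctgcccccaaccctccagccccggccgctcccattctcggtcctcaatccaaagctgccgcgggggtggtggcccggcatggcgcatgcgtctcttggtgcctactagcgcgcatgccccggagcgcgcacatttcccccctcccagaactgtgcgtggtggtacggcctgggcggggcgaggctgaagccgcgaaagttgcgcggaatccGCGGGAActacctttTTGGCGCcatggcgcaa
Lig1: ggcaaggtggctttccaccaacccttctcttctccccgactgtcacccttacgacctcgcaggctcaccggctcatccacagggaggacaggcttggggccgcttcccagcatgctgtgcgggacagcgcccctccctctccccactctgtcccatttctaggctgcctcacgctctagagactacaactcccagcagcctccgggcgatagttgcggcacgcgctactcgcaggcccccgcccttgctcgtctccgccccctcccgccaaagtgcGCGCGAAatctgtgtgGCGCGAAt
Mcm3: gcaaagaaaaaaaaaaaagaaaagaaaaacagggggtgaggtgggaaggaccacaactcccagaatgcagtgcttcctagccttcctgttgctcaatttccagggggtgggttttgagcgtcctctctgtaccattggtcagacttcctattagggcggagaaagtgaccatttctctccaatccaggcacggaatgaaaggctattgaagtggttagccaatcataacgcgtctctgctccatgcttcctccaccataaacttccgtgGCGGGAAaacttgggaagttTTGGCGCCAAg
Rfc3: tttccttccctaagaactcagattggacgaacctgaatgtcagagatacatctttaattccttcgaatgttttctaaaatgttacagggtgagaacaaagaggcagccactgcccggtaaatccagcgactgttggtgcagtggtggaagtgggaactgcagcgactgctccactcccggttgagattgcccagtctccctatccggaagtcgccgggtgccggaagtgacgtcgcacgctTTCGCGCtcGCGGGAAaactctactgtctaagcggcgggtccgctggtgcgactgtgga
Cdc6: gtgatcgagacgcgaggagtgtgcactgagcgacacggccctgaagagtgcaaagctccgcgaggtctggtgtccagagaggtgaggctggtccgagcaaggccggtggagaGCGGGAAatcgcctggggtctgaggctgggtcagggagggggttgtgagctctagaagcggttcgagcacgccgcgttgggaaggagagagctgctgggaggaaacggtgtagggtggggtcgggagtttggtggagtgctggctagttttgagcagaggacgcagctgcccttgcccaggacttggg

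Across all members, the H3K27ac signal at replication promoters exceeded that of LP in HP to about the degree seen at promoters in general. Over the 43 members the log2 ratio of HP to LP had a median of 0.96, and over the 10391 promoters one of 0.90. Within replicate 1 the medians were 0.45 and 0.51, and within replicate 2 they were 1.43 and 1.31. The members therefore differed from all promoters by 0.06 on the log2 scale, by -0.06 in replicate 1 and 0.12 in replicate 2, which is less than the spread between the replicates (SD 0.13, n = 2). Each library averages over a sorted population, so more cells with the mark and more mark per cell cannot be told apart. Libraries also differed in how far their promoter peaks rose above background. Over all promoters the median fold enrichment reached 39.1 for HP replicate 2. It stood at 14.9 for HP replicate 1, 14.7 for LP replicate 2 and 10.6 for LP replicate 1. The part of such differences between whole libraries in the higher HP signal was not tested.

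No member passed the test. limma on the log2 scaled pileup, with Benjamini-Hochberg adjustment over the 10391 promoters, called 80 promoters higher in HP (0.77%) and 1 lower (0.00962%) at an adjusted p of at most 0.05, and 0 of the 43 members in either direction. With the replicate number as a block it called 27 promoters higher and none lower, and again 0 members. With each library centred on its own median it called 4 higher and 1 lower, and with quantile normalization 0 higher and 1 lower. Before adjustment, 13 of 43 members (30.2%) had p under 0.05 with HP higher, beside 30.9% of all promoters, and 0 with HP lower (0.00962%). In 32 of 43 members (74.4%) both HP libraries lay above both LP libraries, beside 73.8% of all promoters, and in 0 they lay below, beside 0.077%. These shares lie at those of promoters at large.

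One library decided how many calls were made. HP replicate 2 lay above HP replicate 1 by a median of 0.71 on the log2 scale over all promoters, whereas LP replicate 2 differed from LP replicate 1 by -0.12. Without HP replicate 1, limma called 33 of 43 members higher in HP, beside 54.2% of all promoters, with the lone HP library assumed to vary like the LP pair. Leaving out LP replicate 1, LP replicate 2 or HP replicate 2 gave 0 members and 3, 5 or 9 promoters. The standard error of each log2 ratio was 0.55, the same for every promoter because limma used 1 pooled variance, and an exact permutation test of 2 against 2 libraries cannot go below p = 0.33.

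**Figure D1:**
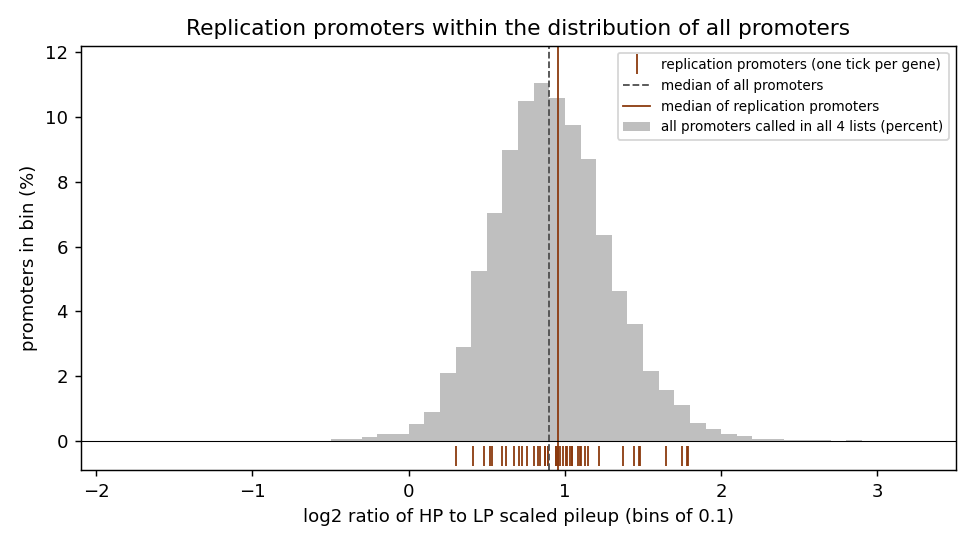
Distribution of the log2 ratio of HP to LP scaled pileup. Grey bars give the percent of the 10391 promoters in bins of 0.1, ticks under the axis give 1 replication gene each, and the vertical lines mark the medians, 0.96 for the 43 replication genes (solid) and 0.90 for all promoters (dashed). The ticks spread over the body of the grey bars, from 0.30 to 1.79.

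The ratios of the members lay over the body of the distribution of all promoters. The middle of their distribution, from the 25th to the 75th percentile, ran from 0.78 to 1.11, against 0.67 to 1.15 for all promoters. Of the 43 members, 9 lay above the upper quartile of all promoters and 7 below the lower quartile. Tk1, Mcm2, Cdc45 and Fen1 lay above the 95th percentile (1.57) and Mcm3 lay below the 5th (0.33). The log2 ratio was above 0 in all 43 members, as in 99.3% of all promoters. In replicate 1 alone it was below 0 in Mcm3, Mcm7, Pold2 and Tyms (9.30% of members, beside 19.4% of all promoters), and in replicate 2 alone in none (beside 1.00%). Across the 43 members the ratios of replicate 1 and replicate 2 correlated with r = 0.124, and across all promoters with r = -0.0829. The genes share 4 libraries and are not independent, so these are descriptions.

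**Figure D2:**
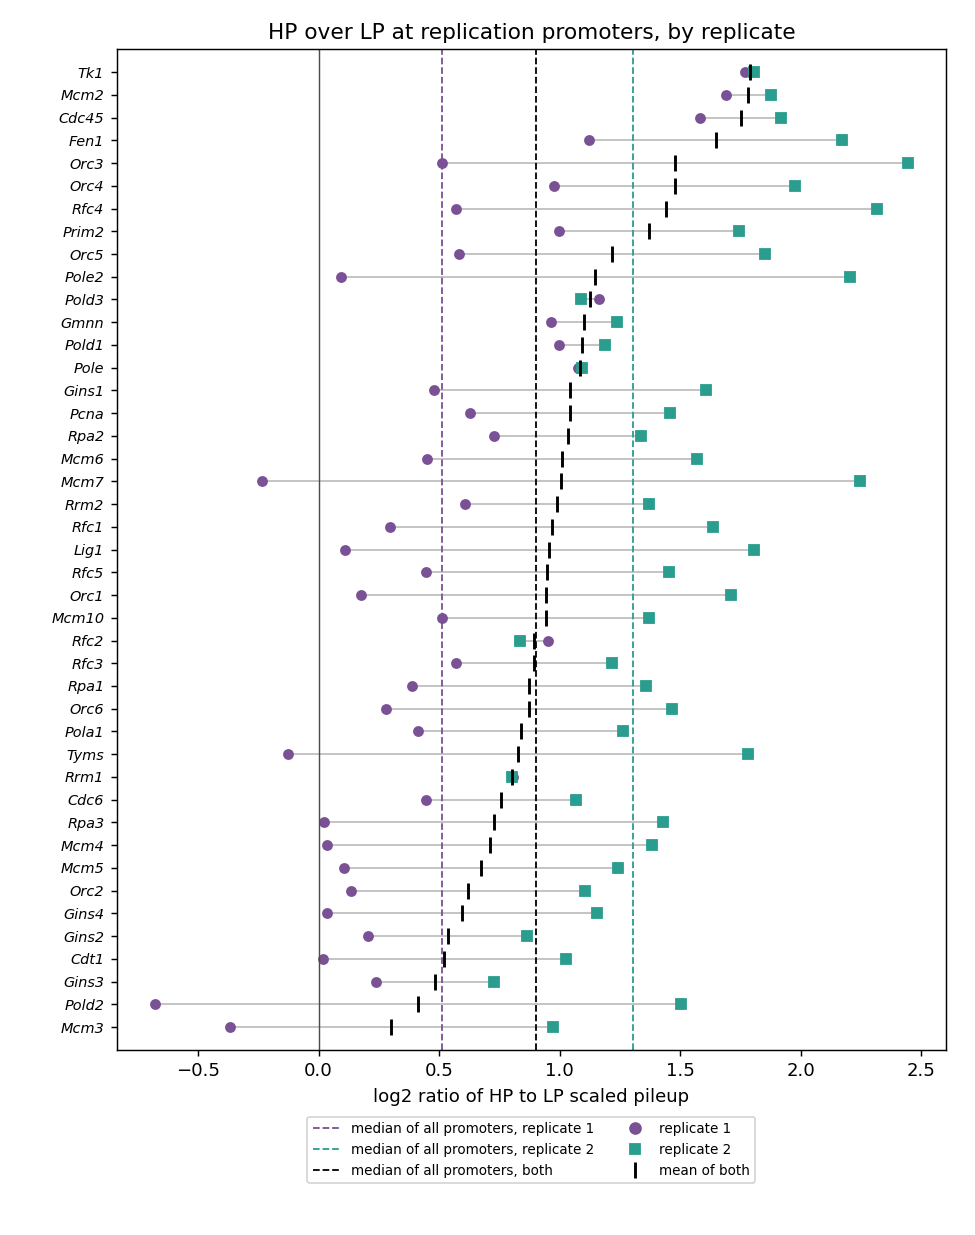
Log2 ratio of HP to LP scaled pileup at each of the 43 replication promoters, in replicate 1 (circles), in replicate 2 (squares) and as the mean of both (bars), ordered by the mean. Dashed lines give the medians of all promoters, 0.51 in replicate 1 and 1.31 in replicate 2. The replicate 2 values lie to the right of the replicate 1 values in all genes but Rfc2, Pold3 and Rrm1, and Tk1 and Mcm2 head the order while Mcm3 ends it.

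The origin recognition complex, which marks the sites where replication can start, had a median log2 ratio of 1.08 over its 6 subunits, with 0.90 for all promoters. Orc3 had the highest ratio, with scaled pileups of 3.05 and 2.28 for the LP pair and 4.35 and 12.4 for the HP pair. Its log2 ratio was 1.48 (adjusted p = 0.106, limma), made up of 0.51 in replicate 1 and 2.45 in replicate 2, so most of it came from HP replicate 2. Orc4 had the same ratio of 1.48 and by its highest peaks was more even, with 0.98 and 1.98 in the replicate pairs. Its scaled pileups were 2.79 and 2.48 for the LP pair and 5.49 and 9.75 for the HP pair. The 5.49 of HP replicate 1 came from a different site than in the other libraries, equally near the TSSs of Orc4 and Mbd5. At the site of the other libraries HP replicate 1 had 4.09, so the pairs were less even there. Orc5 had lower levels, 1.40 and 1.30 for the LP pair and 2.09 and 4.70 for the HP pair, with a log2 ratio of 1.22 (adjusted p = 0.141, limma). Orc2 stood at the other end, at 7.06 and 5.60 for the LP pair and 7.75 and 12.1 for the HP pair. Its log2 ratio of 0.62 was below the median of all promoters, although both HP libraries lay above both LP libraries. Orc1 and Orc6 had ratios of 0.94 and 0.87. The highest summit was nearest to a neighbouring gene in some libraries, to Prpf38a at Orc1 in HP replicate 2 and to Vps35 at Orc6 in all but LP replicate 1. At Orc6 the groups overlapped, and in the other 5 subunits they did not (83.3%, beside 73.8% of all promoters).

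The 3 licensing factors had a median log2 ratio of 0.76, and their groups did not overlap, as in 73.8% of all promoters. Cdt1, which brings MCM to the origin, had nearly equal values in 3 libraries, 6.45 and 6.45 in LP and 6.53 in HP replicate 1, and 13.1 in HP replicate 2. Its log2 ratio of 0.52 (adjusted p = 0.402, limma) thus rested on 1 library. Gmnn, which codes for geminin, the inhibitor of Cdt1, had 3.92 and 3.06 for the LP pair and 7.66 and 7.23 for the HP pair. Its replicate pairs gave 0.97 and 1.24, a mean of 1.10 (adjusted p = 0.158, limma). Cdc6, the ATPase that acts with the origin recognition complex, had low values of 0.959 and 1.24 for the LP pair and 1.31 and 2.60 for the HP pair, with a log2 ratio of 0.76.

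The 6 MCM helicase subunits work as 1 ring, yet their promoters spanned nearly the whole range of the members, from 0.30 to 1.78, with a median of 0.86. Mcm3 had high levels in every library, 8.55 and 7.62 for the LP pair and 6.62 and 14.9 for the HP pair. HP replicate 1 was the lowest of the 4 libraries, and the log2 ratio was 0.30 (adjusted p = 0.611, limma), with -0.37 in replicate 1 and 0.97 in replicate 2. The highest Mcm3 peak of LP replicate 1 lay at chr1:20819828-20820340 (mm10), with its summit 213 bp downstream of the TSS. Mcm7 also had a ratio below 0 in replicate 1 (-0.24) and the groups overlapped, at 3.49 and 2.08 for the LP pair and 2.96 and 9.89 for the HP pair. Mcm4, Mcm5 and Mcm6 had ratios of 0.71, 0.67 and 1.01, and in these 3 the HP libraries lay above the LP libraries.

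Mcm2 had the largest ratio of the ring, but its peaks were not the same in all libraries. Its scaled pileups were 1.92 and 4.17 for the LP pair and 6.18 and 15.3 for the HP pair, a log2 ratio of 1.78 (adjusted p = 0.0735, limma). In LP replicate 1 the highest summit lay 227 bp downstream of the Mcm2 TSS. In LP replicate 2 and the HP replicates it lay at -3666, -3623 and -3743 bp, upstream and nearest to the TSS of Tpra1, in HP replicate 2 within the peak at chr6:88901462-88904210 (mm10), which reaches into the window. At the summit beside the Mcm2 TSS itself the scaled pileups were 1.92 and 1.82 for the LP pair and 3.40 and 9.19 for the HP pair. That gave a log2 ratio of 1.58, with 0.82 in replicate 1 and 2.33 in replicate 2 (adjusted p = 0.0932, limma, promoter window of 1 kb).

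Among the 6 helicase activation genes the median log2 ratio was 0.77, and Cdc45 stood apart from the GINS subunits it works with. Cdc45, which joins MCM and GINS in the active helicase, had 1.57 and 2.93 for the LP pair and 4.70 and 11.1 for the HP pair. The log2 ratio was 1.75 (adjusted p = 0.0744, limma), with similar values in both replicate pairs, 1.58 and 1.92. Its summit stood at -497 to -521 bp, upstream of the Cdc45 TSS, in all 4 libraries and was nearer to the TSS of Ufd1 on the opposite strand, so the promoter values of Cdc45 and Ufd1 cannot be told apart. Peaks with a summit nearest to the Cdc45 TSS were called only in the HP libraries, with scaled pileups of 1.83 and 1.12. In HP replicate 2 the peak of 11.1 also covers the Cdc45 TSS. The 1.12 belongs to a separate summit 786 bp downstream and is not the level at that TSS. The 4 GINS subunits had ratios of 1.04 (Gins1), 0.54 (Gins2), 0.48 (Gins3) and 0.60 (Gins4). The highest Gins1 summit was nearest to the TSS of Abhd12 in the LP libraries and HP replicate 1. In HP replicate 2 it lay at another TSS of Gins1, with 6.94, where the peak nearest to Abhd12 had 4.14, so the Gins1 ratio joins different sites. At Gins3 the values were 1.92 and 2.54 for the LP pair and 2.26 and 4.21 for the HP pair, and the groups overlapped. At Gins2 they were 1.13 and 1.69 for the LP pair and 1.31 and 3.09 for the HP pair, again with overlap. Mcm10, a factor needed to start unwinding, had a ratio of 0.94, and its groups overlapped as well.

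The sliding clamp and its loader had log2 ratios from 0.89 to 1.44 with a median of 0.96 over 6 genes. By the highest peak in the window both HP libraries lay above both LP libraries in all 6, beside 73.8% of all promoters, but at Pcna this rests in 2 libraries on a peak nearest to another gene. Pcna, the clamp that holds polymerases on DNA, had 2.70 and 2.74 for the LP pair and 4.18 and 7.51 for the HP pair, a log2 ratio of 1.04. In LP replicate 2 and HP replicate 1 the highest Pcna summit lay 2569 and 2562 bp downstream of the TSS and nearer to the TSS of Tmem230, and in the other libraries within 119 bp. At the summit beside the Pcna TSS itself the scaled pileups were 2.70 and 1.76 for LP replicates 1 and 2 and 2.44 and 7.51 for HP replicates 1 and 2, so that the groups overlapped. Rfc4, a small subunit of the loader, had 3.05 and 2.61 for the LP pair and 4.53 and 13.0 for the HP pair, with a log2 ratio of 1.44 (adjusted p = 0.112, limma). Rfc3 had 2.88 and 3.26 for the LP pair and 4.27 and 7.58 for the HP pair, and its ratio of 0.89 was that of promoters in general. Rfc1, Rfc2 and Rfc5 had ratios of 0.97, 0.89 and 0.95.

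Primase and the polymerases included the lowest levels of the list. Pola1, the catalytic subunit of polymerase alpha, had 0.523 and 0.847 for the LP pair and 0.697 and 2.03 for the HP pair, which is 6 and 13 fragments in LP and 8 and 29 in HP. Its level was among the lowest 3.25% of the promoters in every library. Pola2, the accessory subunit, had no promoter peak in LP replicate 1, 1.30 in LP replicate 2 and 2.09 and 4.56 in HP. Prim1, the catalytic primase subunit, likewise lacked a peak in LP replicate 1 and had 0.586 in LP replicate 2 and 1.65 and 1.89 in HP. In LP replicate 2 the Prim1 peak lay at another annotated TSS, inside the gene. Both genes thus lacked a peak in the library with the lowest median pileup of its peaks, 7 fragments against 10 to 12 in the others, and the part of depth in this was not tested.

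Prim2, the large primase subunit, had 1.92 and 1.76 for the LP pair and 3.83 and 5.89 for the HP pair, a log2 ratio of 1.37 (adjusted p = 0.118, limma). Its summit lay at -395 bp, upstream of the TSS, in LP replicate 1 and 164 to 194 bp downstream in the other libraries. The Prim2 ratio thus joins different sites. HP replicate 1 had a separate peak of 3.66 with its summit at -408 bp. Pold1, the catalytic subunit of polymerase delta, had low values of 0.785 and 1.11 for the LP pair and 1.57 and 2.53 for the HP pair, with a ratio of 1.09. Pold3, another subunit of polymerase delta, was high, at 5.06 and 5.02 for the LP pair and 11.3 and 10.7 for the HP pair. Its replicate pairs gave 1.16 and 1.09, so the ratio of 1.13 (adjusted p = 0.154, limma) came equally from both. Pold2, the subunit that links the others, had 2.09 and 1.95 for the LP pair and 1.31 and 5.54 for the HP pair. Its pairs pointed in opposite directions, at -0.68 and 1.50, and in HP replicate 1 the highest summit lay 1720 bp downstream of the TSS and elsewhere within 141 bp. Pole and Pole2, of polymerase epsilon, had ratios of 1.08 and 1.15. Over the 7 tested genes of this group the median ratio was 1.09, and in 5 of them (71.4%, beside 73.8% of all promoters) both HP libraries lay above both LP libraries.

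The 3 RPA subunits, which protect single-stranded DNA, had a median ratio of 0.87. Rpa2 had 4.62 and 5.67 for the LP pair and 7.66 and 14.3 for the HP pair, a log2 ratio of 1.03. Rpa3 was almost level in 3 libraries, at 4.80 and 4.95 in LP and 4.88 in HP replicate 1, with 13.3 in HP replicate 2. Its ratio of 0.73 rested on that library, and its summit was nearest to another annotated gene, Gm45062, in all 4 libraries. Rpa1 had a ratio of 0.87, with the highest summit nearest to the TSS of Smyd4 in LP replicate 1 and HP replicate 2.

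Fen1, the nuclease that trims Okazaki fragments, had 0.959 and 1.43 for the LP pair and 2.09 and 6.45 for the HP pair. The HP libraries lay above the LP libraries, with a log2 ratio of 1.65 (adjusted p = 0.0861, limma). The LP values rest on 11 and 22 fragments, and the summit was nearest to the TSS of Tmem258 on the opposite strand in LP and to that of Fen1 in HP, so the values join both promoters. Lig1, the ligase that seals the fragments, had 3.31 and 1.82 for the LP pair and 3.57 and 6.38 for the HP pair, a ratio of 0.96 made up of 0.11 in replicate 1 and 1.81 in replicate 2.

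Of the nucleotide supply genes, Tk1, which codes for the thymidine kinase of the salvage pathway, had the largest ratio of all members. Its scaled pileups were 1.05 and 1.56 for the LP pair and 3.57 and 5.47 for the HP pair. Both replicate pairs gave nearly the same value, 1.77 and 1.81, and the log2 ratio was 1.79 (adjusted p = 0.0735, limma). The summit lay 83 to 267 bp downstream of the Tk1 TSS in every library, for example within chr11:117824840-117826380 (mm10) in HP replicate 1. The bases of its promoter window under peaks also differed, 658 and 1976 bp for LP against 3788 and 5704 bp for HP. The LP values rest on 12 and 24 fragments, and Afmid starts within 1 kb on the opposite strand. Rrm1, the large subunit of ribonucleotide reductase, had 4.19 and 5.80 for the LP pair and 7.31 and 10.1 for the HP pair, a log2 ratio of 0.80 with 0.81 and 0.80 in the pairs. Rrm2, its small subunit, and Tyms, the thymidylate synthase, had ratios of 0.99 and 0.83 with overlapping groups.

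**Figure D3:**
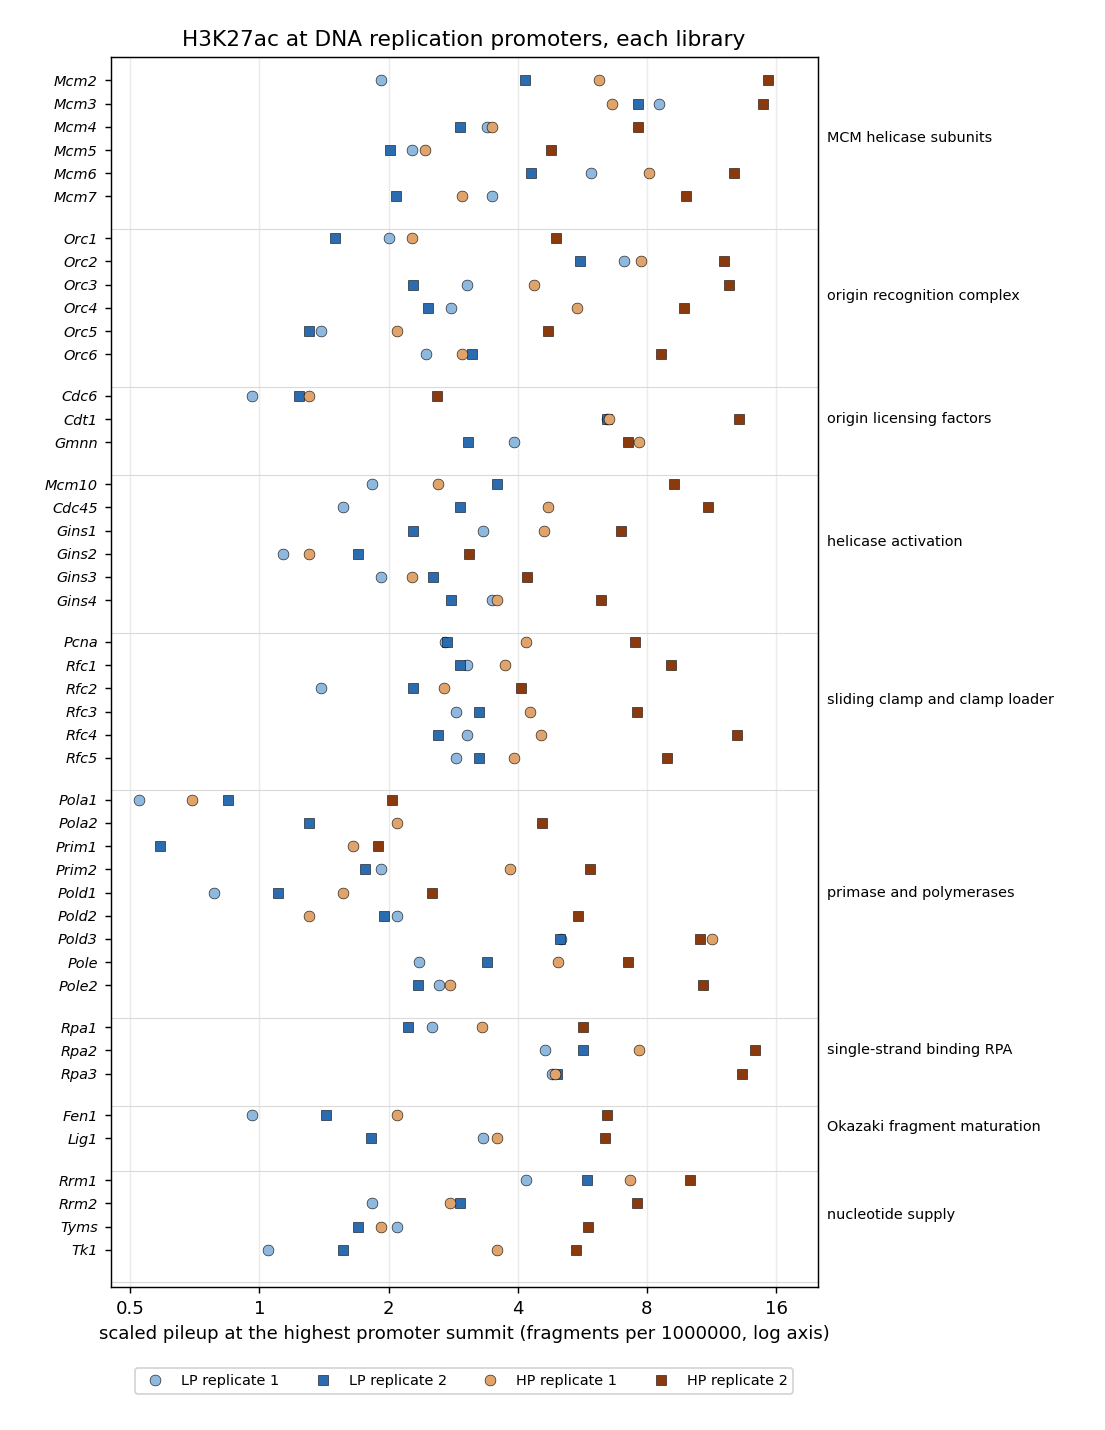
Scaled pileup (fragments per 1000000, log axis) at the highest promoter summit of each of the 45 genes, by role, with circles for replicate 1, squares for replicate 2, blue for LP and brown for HP. HP replicate 2 is the highest library at most genes, and both HP libraries lie above both LP libraries in 32 of the 43 genes with 4 points. Pola2 and Prim1 have no point for LP replicate 1.

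Since nearly all promoters were higher in HP, the members were also read relative to their library. After each library was centred on its median over the 10391 promoters, both HP libraries lay above both LP libraries in 4 of 43 members (9.30%), Orc4, Cdc45, Prim2 and Tk1, beside 10.7% of all promoters. Both lay below in 7 members (16.3%), Mcm3, Mcm5, Orc2, Cdt1, Gins3, Gins4 and Rpa1, beside 16.3% of all promoters. HP was above LP in both replicate pairs in 8 members (18.6%, beside 18.1%) and below in both in 11 (25.6%, beside 29.1%). At Orc4 the HP replicate 1 value, and at Prim2 the LP replicate 1 value, came from a different site than in the other libraries, as given above. Centred values at a shared site were not computed. The Cdc45 summit was nearest to the TSS of Ufd1 in all 4 libraries. Among the members that lay below, summits also differed in site between libraries at Mcm5 and Rpa1. On this scale the log2 ratio was 0.81 at Tk1, 0.77 at Cdc45 and -0.68 at Mcm3, with a median of -0.079 over all promoters. The shares were again close to those of promoters in general.

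The level itself placed replication promoters below the middle of the promoters with a peak in every library. Ranked within each library, the median member stood at percentile 40.1 and 37.1 for the LP pair and 32.6 and 45.4 for the HP pair. Only 8 members (18.6%) were above the median promoter in all 4 libraries, as were 35.4% of all promoters, and 17 (39.5%) were below it in all 4, as were 35.0%. The members ranged from 0.523 to 8.55 in LP replicate 1 and from 2.03 to 15.3 in HP replicate 2. The highest mean levels were those of Mcm3, Orc2, Cdt1, Rpa2 and Pold3, and the lowest those of Pola1, Pold1, Cdc6, Gins2 and Orc5. The highest summit of a member held a median of 30 and 40 fragments in LP and 41 and 108 in HP, so the low members rest on few fragments.

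**Figure D4:**
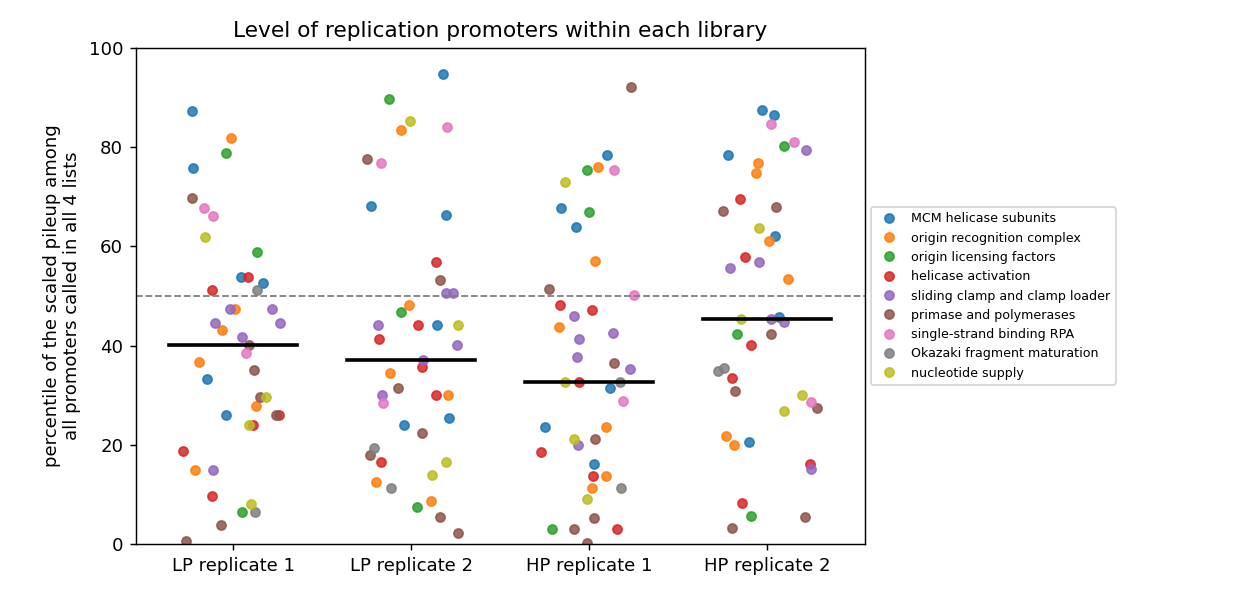
Percentile of each of the 43 replication promoters among all 10391 promoters within each library, coloured by role, with the black bar at the median (40.1, 37.1, 32.6 and 45.4 from left to right) and the dashed line at 50. Sideways position within a library has no meaning. Most points lie below the dashed line in every library.

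The position of the peaks at replication promoters was close to that at all promoters. The highest summit lay a median of 125 and 164 bp from the nearest TSS of the gene for LP and 182 and 142 bp for HP, where all promoters had 149 and 175 bp and 166 and 162 bp. It lay within 500 bp in 38 to 42 of the 43 members (88.4% to 97.7%, beside 87.9% to 88.5% of all promoters). It was downstream of the TSS in 28 to 32 of them (65.1% to 74.4%, beside 67.6% to 72.6%). The median width of that peak was 528 and 845 bp for the LP pair and 697 and 1501 bp for the HP pair, while over all promoters it was 666 and 926 bp and 1021 and 1457 bp. The bases under peaks in the promoter window were more in both HP libraries than in both LP libraries in 20 of 43 members (46.5%), beside 56.4% of all promoters. Peaks inside the gene and outside the promoter window were found in 6 and 18 members in LP and 17 and 21 in HP, so the groups overlapped. The share over all genes was not computed for this count, and LP replicate 1 had the fewest peaks of any library (57942). Another gene started within 1 kb on the opposite strand in 14 members (32.6%), beside 22.3% of all promoters. When each peak was given to its nearest TSS alone, Orc1, Orc6, Cdc45, Gins1, Rpa1, Rpa3 and Fen1 no longer had a peak of their own in every library.

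Other genes of the same process had a median log2 ratio of 0.80, with 0.96 for the members and 0.90 for all promoters, and none was called. Of 36 further replication genes, among them the firing kinase Cdc7 with Dbf4, fork protectors, chromatin assembly factors and RNase H2, 34 had a peak in all 4 libraries. Pold4 lacked one in LP replicate 2 and Asf1b in LP replicate 1. limma called 0 of the 34, and before adjustment 6 (17.6%, beside 30.9% of all promoters) had p under 0.05 with HP higher. Both HP libraries lay above both LP libraries in 23 (67.6%, beside 73.8%). In replicate 1 the ratio was below 0 in 9 of them (26.5%, beside 19.4%), and on the centred scale HP was above LP in both pairs in 2 (5.88%, beside 18.1%) and below in both in 14 (41.2%, beside 29.1%). Their levels were higher than those of the members, with the median gene at percentile 61.5 and 56.9 in the LP libraries and 52.8 and 60.4 in the HP libraries, and 16 (47.1%, beside 35.4%) were above the median promoter in all 4. The difference between these lists was not tested. Mcm8, a relative of the MCM subunits that acts in recombination, had the largest ratio, with 1.22 and 2.15 for the LP pair and 3.74 and 7.93 for the HP pair. Its log2 ratio was 1.75 (adjusted p = 0.0744, limma), and 2.25 when peaks were given to the nearest TSS alone, where it passed (adjusted p = 0.0263, limma). Only the LP replicate 1 value differs there. Its highest peak, of 14 fragments, was nearest to another gene and gave way to a lower peak, so the pass rests on few fragments of that library. Trmt6 starts within 1 kb of Mcm8 on the opposite strand.

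Rnaseh2a, the catalytic subunit of RNase H2, and Chaf1b, a subunit of the chromatin assembly factor CAF-1, followed Mcm8 with ratios of 1.36 and 1.24. Pole4, a histone-fold subunit of polymerase epsilon, had the lowest ratio, with 22.8 and 10.1 for the LP pair and 10.5 and 31.4 for the HP pair. These values span a wide range within each group, and its log2 ratio was 0.26, with -1.12 in replicate 1 and 1.64 in replicate 2. Wdhd1, an adaptor between helicase and polymerase alpha, and Timeless, of the fork protection complex, had ratios of 0.27 and 0.31, with values below 0 in replicate 1. The Wdhd1 summit stood at -228 to -274 bp, upstream of its TSS, and was nearer to the TSS of another gene in all 4 libraries, where Socs4 starts on the opposite strand.

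The promoter windows of the members held E2F-type letters far more often than other promoters did. RefSeq windows of GRCm38.p6 were matched by symbol for 37 of the 45 genes, 45 windows in all, and Pole, Gins1, Prim2, Gins4, Rfc2, Mcm4, Gins2 and Gmnn were not matched. At least 1 such heptamer stood in 26 of the 45 windows (57.8%), in 51.6% of 31 windows of the other replication genes, in 17.7% of 10592 windows of genes with a peak in all 4 libraries and in 9.57% of all 32851 windows. CCAAT, the letters of the CCAAT box, stood in 55.6% of member windows and 37.2% of windows of genes with a peak in all 4 libraries. The GC box GGGCGG stood in 71.1% and 65.2%, the E-box CACGTG, the kind of site that Mitf and Myc bind, in 15.6% and 10.4%, and the cell cycle element TTTGAA in 11.1% and 11.5%. The median GC content was 60.0% and 61.7%. A match says that the letters are present, not that a factor binds there.

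Ratios were similar with and without these letters. Members with an E2F-type match had a median log2 ratio of 0.97 (23 tested genes) and members with windows but no match 0.95 (12 genes). Of the genes whose windows are shown above, Lig1 had a ratio of 0.96, Rfc3 0.89, Pola1 0.84, Cdc6 0.76, Cdt1 0.52 and Mcm3 0.30. Members without a match ranged from 0.41 at Pold2 to 1.79 at Tk1. The Mcm3 and Rfc3 summits lay 171 to 245 bp downstream of the TSS, beyond the end of the windows shown above.

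**Figure D5:**
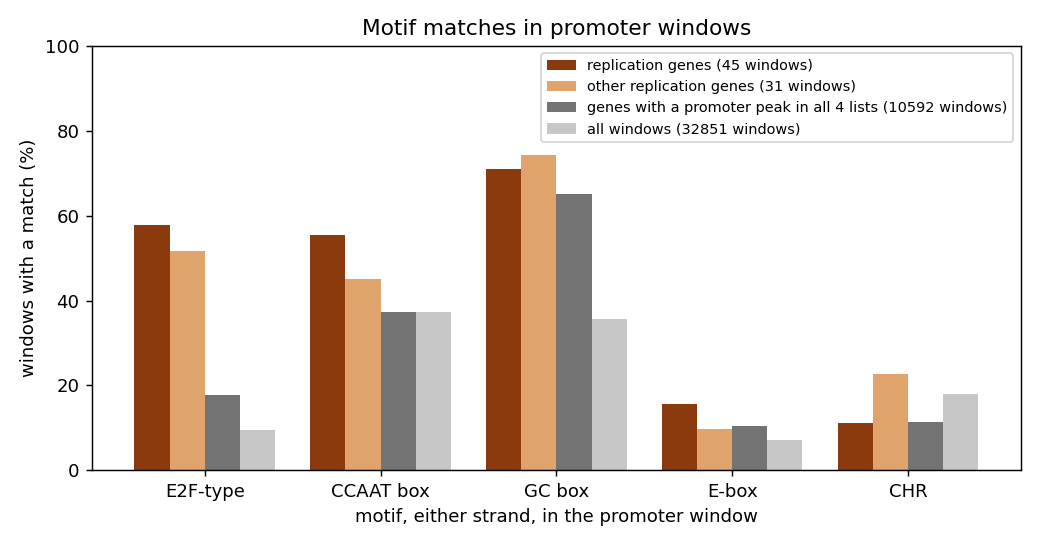
Share of RefSeq promoter windows (250 bases before to 50 after the TSS) with at least 1 match to each motif on either strand, for replication genes (45 windows), other replication genes (31), genes with a promoter peak in all 4 libraries (10592) and all windows (32851). The E2F-type bars stand at 57.8% and 51.6% for the replication sets and at 17.7% and 9.57% for the others, while the GC box, E-box and cell cycle element (CHR) bars of the replication genes are close to those of genes with a peak.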

How the data were processed

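Per the labels and the methods, the authors trimmed the reads with Trimmomatic 0.33, aligned them to mm10 with Bowtie2 2.5.1 and called narrow peaks in each H3K27ac library with MACS 3.0.0b1 at a q-value cutoff of 0.05, with the IgG library that shares its replicate number as control. The deposited pileup is a signal, the whole number of fragments over the summit, not scaled for library size. The deposited fold enrichment and −log10 q-value of each peak were used to describe or filter peaks only. A narrow peak list was deposited for each H3K27ac library, and the IgG libraries were not analysed here on their own.

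Each pileup was expressed per 1000000 of its library's fragments, whose total the authors' output gives. The value of a gene was the highest scaled pileup among peaks that overlapped the 3 kb on either side of any GENCODE M21 TSS. No count model was used, because the pileup at a summit is not a read count over a region. limma 3.58.1 in R 4.3.3 compared log2 values of HP and LP, without a pseudocount, over the 10391 protein-coding promoters with a peak in all 4 lists, with Benjamini-Hochberg adjustment and a threshold of 0.05. The prior degrees of freedom were infinite, so that 1 pooled variance was used. The fit was tested on simulated data. Replicate numbers pair the libraries, since per the labels LP and HP cells were sorted from the same culture and the libraries of a replicate set began from equal amounts of DNA, and each number had its own IgG control. The difference between replicate 2 and replicate 1 in LP correlated with that in HP at 0.0450 over promoters. The block was an alternative, as the study states none. Few fragments support many summits (a median of 7 to 12 per peak), and counting error was not modelled apart from the spread between libraries. Promoter sequences and motif counts came from RefSeq windows of GRCm38.p6, in Python 3.11.15 with pandas 2.3.3, numpy 2.4.6 and matplotlib 3.10.9.

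The members and lists were chosen with earlier results of these data known. Named with values are the members of highest and lowest ratio in each role group, those without a peak in some list, the 5 of highest and 5 of lowest mean level, and the 3 highest and 3 lowest of the other replication genes. Values given for further members, such as Orc4 and Mcm7, were chosen after they were seen. Alternatives were centring, quantile normalization, scaling by fragment length, the replicate block, mean summit pileups, a window of 1 kb, protein-coding transcripts, all genes, a q-value of at most 0.001, assignment to the nearest TSS, a pseudocount of 0.5 and leaving out each library or replicate.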

Additional observations from a re-analysis of the deposited data

How the results depend on the processing

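The count of members called was 0 under every alternative but one, since without HP replicate 1 it was 33 (range 0 to 33 over left-out libraries). The 81 promoters called became 5 with each library centred on its median, 1 with quantile normalization, 25 when scaled to fragments times fragment length, 27 with the replicate block, 0 from mean summit pileups (1533 with HP higher and 7 with HP lower had an unadjusted p under 0.05, limma), 9 with a window of 1 kb, 7 at a q-value of at most 0.001, 10 with a pseudocount of 0.5 and 3 to 5694 over left-out libraries. A block together with centring, chosen after seeing the data, gave 0 (151 with HP higher and 152 with HP lower had an unadjusted p under 0.05, limma). The replicate block changed no call of a named gene. The median of the members relative to all promoters ranged from -0.087 to 0.21 over left-out libraries, and 43 to 45 members had a peak in every remaining list.

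Directions turned mainly where each library was centred, which takes away the shift shared by most promoters. The median log2 ratio over all promoters was 0.90 before centring and -0.079 after it. The centred values at Rfc3 and Lig1 below lie close to that median. With centring, with or without the block, the log2 ratio was -0.68 at Mcm3, -0.36 at Orc2, -0.46 at Cdt1, -0.50 at Gins3, -0.086 at Rfc3, -0.57 at Pold2, -0.25 at Rpa3, -0.022 at Lig1, -0.18 at Rrm1, -0.14 at Pola1, -0.22 at Cdc6, -0.44 at Gins2, -0.72 at Pole4, -0.71 at Wdhd1 and -0.67 at Timeless. With quantile normalization it was -0.51, -0.22, -0.34, -0.55, -0.092, -0.65, -0.16, -0.0042, -0.17, -0.10, -0.30, -0.55, -0.28, -0.54 and -0.56 at these genes in this order. With mean summit pileups it was -0.27 at Orc2, -0.72 at Cdt1, -0.0086 at Pold2, -0.31 at Rrm1, -0.91 at Pole4 and -0.15 at Wdhd1, and the cause was not tested. Over left-out libraries it ran from -0.37 to 0.97 at Mcm3, -0.68 to 1.50 at Pold2, -0.085 to 1.16 at Gins2, -1.12 to 1.64 at Pole4, -0.54 to 1.08 at Wdhd1 and -0.61 to 1.23 at Timeless. Mcm8 passed the threshold when peaks went to the nearest TSS. Values at Pola1, Cdc6 and Pold1 rest on fewer than 40 fragments in each library, where 1 fragment is worth 0.0651 to 0.0872 on the scaled pileup.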
